A study of Caenorhabditis elegans with 2 samples.

Results

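The 9 genes described here serve protein folding and stress signalling in the endoplasmic reticulum (ER) of Caenorhabditis elegans. They are the ER Hsp70 genes hsp-3 and hsp-4, the calreticulin gene crt-1, the protein disulfide isomerase genes pdi-1 and pdi-2, the stress sensor genes ire-1, pek-1 and atf-6, and the transcription factor gene xbp-1. They were chosen by name for these roles, with earlier results of these data known, and are 9 of 16892 protein-coding genes with a read. All 9 had the 20 reads over both libraries that a gene needed to be measured, as did 10817 genes in all.

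Proteins that enter the ER are folded there by chaperones and by enzymes that form disulfide bonds. When unfolded proteins build up, sensors in the ER membrane start the unfolded protein response. IRE-1 cuts the xbp-1 mRNA so that a spliced form encodes the active factor, PEK-1 phosphorylates the translation factor eIF2-alpha, and ATF-6 is released from the membrane as a transcription factor. In the worm, the intestine is a secretory tissue that makes yolk proteins and digestive enzymes.

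RNA 3' ends were sequenced from 2 libraries of strain JM149, 1 of input nuclei labelled as mixed tissues and total RNA, and 1 of sorted nuclei labelled as intestine and nuclear RNA. Both came from liquid cultures of mixed stages at 25 °C, passed through a strainer to favour adults. JM149 is known as a line whose intestinal nuclei carry green fluorescent protein under the elt-2 promoter, and the labels used here do not describe the marker. With 1 library per group there is no replicate check and no test between groups, and the molecule label cannot be told apart from the sort. Intervals below are exact 95% intervals that take each read as a separate molecule. They cover counting error only and hold no spread between libraries of a group. Copies made by PCR cannot be told from separate molecules without molecular identifiers, and such copies would make the intervals too narrow.

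The input library held 9094297 and the sorted library 4571685 reads in protein-coding genes. Levels are these reads scaled to a sum of 1e+06 (RPM). A read marks the end of 1 transcript, so RPM needs no division by gene length, but priming and amplification can differ between genes. A gene was called higher when the lower bound of its ratio of sorted over input passed 2, and lower when the upper bound stayed under 0.5. Of 12 measured intestinal markers 8 were called higher, against 13.5% of all measured genes. Among them were elt-2 at a ratio of 3.20 and ges-1 at 3.26, while vit-2 stood at 0.739. Under TMM or median-of-ratios scaling 7 were called, without cpr-1, against 12% and 12.3% of all genes. The list's summed level was 16597 RPM in input and 22795 in sorted nuclei. Markers of other tissues were still present in sorted nuclei. Summed levels were 5082 and 2022 RPM for 8 hypodermal genes, 3676 and 2792 for 7 body wall muscle genes, and 219 and 97.6 for 5 pharyngeal genes. For 5 sperm genes they were 305 and 92.1, and for 7 neuronal genes 61.6 and 34.8. The muscle sum was led by unc-27 and mup-2, while the 7 muscle genes had a median log2 ratio of -0.012. In the neuronal sum egl-3 held 47.0 RPM of input, and 2 of the 4 measured neuronal genes had ratios above 1. The 8 germ line markers other than pie-1 went from 5984 to 2749 RPM. The germ line gene pie-1 went the other way, from 1.22% to 6.77% of all gene reads. The germ line gene gld-1, the hypodermal gene rol-6 and the muscle gene unc-54 were also called higher, rol-6 not under TMM. Where a transgene carries the 3' end of a gene, its reads cannot be told from those of the gene itself. Whether this holds for pie-1 or any other marker here was not tested. Among all these markers mtl-2 had 0 reads in input and fkh-6 had 0 in sorted nuclei. The part of these other tissues in the values below was not tested. In such bulk libraries, fewer nuclei of a type and less RNA per nucleus cannot be told apart.

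The folding genes crt-1, pdi-2 and hsp-3 had the highest levels of the 9 genes, and hsp-4 and atf-6 the lowest, in both libraries. crt-1 and pdi-2 together gave 81.5% of the 13565 input reads of the 9 genes and 93.7% of their 35521 sorted reads. Of the 9 genes 3 were called higher in sorted nuclei, crt-1, pdi-2 and xbp-1, against 13.5% of all measured genes. None was called lower, against 4.1% of all genes. All 9 ratios lay above 1, as for 51.0% of measured genes, and 6 of the 9 intervals lay wholly above 1, against 32.3%. Intervals narrow as reads grow, and measured genes had medians of 73 input and 44 sorted reads. The shares of intervals above 1 are therefore not matched for depth. The median log2 ratio of the 9 genes was 1.09, beside 0.043 over all measured genes. Each of the 3 calls was also made with TMM factors, where 12% of genes were called higher, and with median-of-ratios factors, where 12.3% were.

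**Figure D1:**
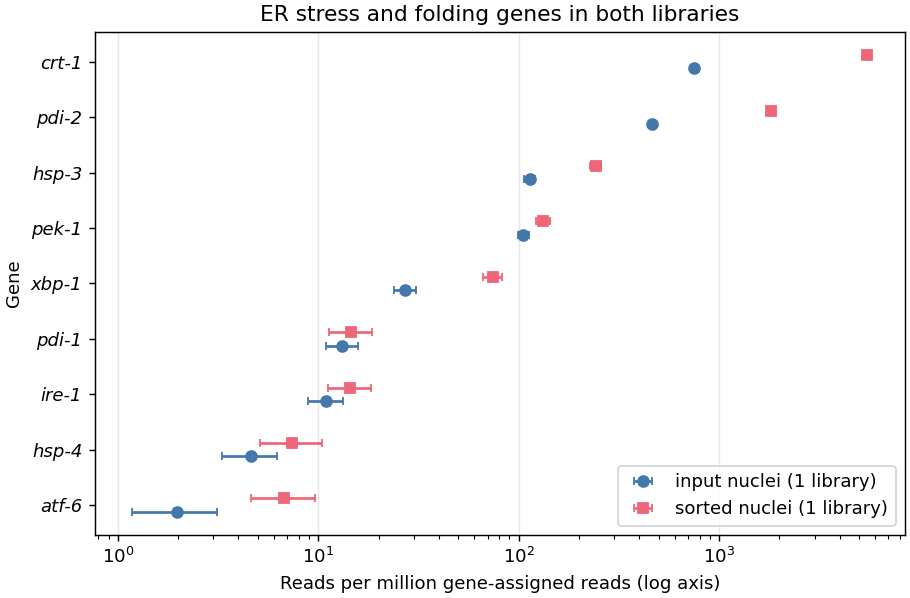
Level of each of the 9 genes in input nuclei (circles) and sorted nuclei (squares), in RPM of gene-assigned reads on a log axis, with exact Poisson 95% intervals of 1 library each. crt-1 and pdi-2 lie highest in both libraries, and atf-6 and hsp-4 lowest.

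The gene crt-1 encodes calreticulin, a calcium-binding chaperone of the ER lumen that binds glycoproteins while they fold. It lies on the minus strand of chromosome V, from 6098992 to 6100542 in WBcel235. Its reads numbered 6849 in input and 24937 in sorted nuclei, or 753 RPM (735 to 771) and 5455 RPM (5387 to 5523). The ratio of 7.24 (7.05 to 7.44) made it the only one of the 9 genes called at 4-fold, where 4.7% of all genes were called higher. At 4-fold none was lower, against 0.305% of genes. By level it stood at rank 218 of all genes in input and at rank 22 in sorted nuclei. The measured genes nearest to it in level over both libraries were the vacuolar ATPase gene vha-20 with 756 and 3369 RPM, bcf-1 with 1150 and 3632 RPM, and the lysozyme gene lys-2 with 701 and 2979 RPM. Their distances from crt-1, taken on log2 RPM in both libraries, were 0.70, 0.85 and 0.88. The gene for calnexin, cnx-1, the membrane-bound relative of calreticulin, did not share its ratio. It stood at 31.3 and 35 RPM, a ratio of 1.12 (0.914 to 1.36), with an interval below that of crt-1.

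The protein disulfide isomerases form and reshuffle disulfide bonds, and PDI-2 is also a subunit of the worm's collagen prolyl 4-hydroxylase. pdi-2, on the plus strand of chromosome X from 4524155 to 4526536, had 4200 input and 8331 sorted reads. Its level went from 462 RPM (448 to 476) to 1822 RPM (1783 to 1862), a ratio of 3.95 (3.80 to 4.1). pdi-1, on the minus strand of chromosome III from 3699739 to 3701461, is the rarer isoform, with 120 and 67 reads. It stood at 13.2 RPM (10.9 to 15.8) in input and 14.7 RPM (11.4 to 18.6) in sorted nuclei, a ratio of 1.11 (0.811 to 1.51), and its library levels overlapped. There were 35 reads of pdi-2 for each of pdi-1 in input (29.2 to 42.3) and 124 in sorted nuclei (97.8 to 161), so the isoforms differed in their ratio beyond counting error.

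Other disulfide isomerase genes spread between these values. pdi-3 was the most abundant gene of the ER lists at 5712 RPM in input and 4422 RPM in sorted nuclei, a ratio of 0.774 (0.762 to 0.787). pdi-6 went from 289 to 698 RPM, a ratio of 2.42 (2.30 to 2.55), and was called higher, though not without its largest position, at 2.06 (1.90 to 2.25). C14B9.2 stood at 187 and 255 RPM, a ratio of 1.36 (1.26 to 1.47). The partners of PDI-2 in collagen hydroxylation were rare. dpy-18, which encodes the catalytic subunit needed for normal cuticle, stood at 10.3 and 6.12 RPM with a ratio of 0.593 (0.374 to 0.912). That ratio was 0.276 (0.114 to 0.582) without the downstream extension and 0.989 (0.550 to 1.72) near annotated ends alone. phy-2, another catalytic subunit, stood at 5.61 and 6.34 RPM with a ratio of 1.13 (0.691 to 1.82). Neither interval reached that of pdi-2. The cyclophilin gene cyn-9, which shares an operon with pdi-1, stood at 7.70 and 3.28 RPM, a ratio of 0.426 (0.227 to 0.752). Without the downstream extension only 26 of its 85 reads remained and the ratio was 1.04 (0.410 to 2.47).

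**Figure D2:**
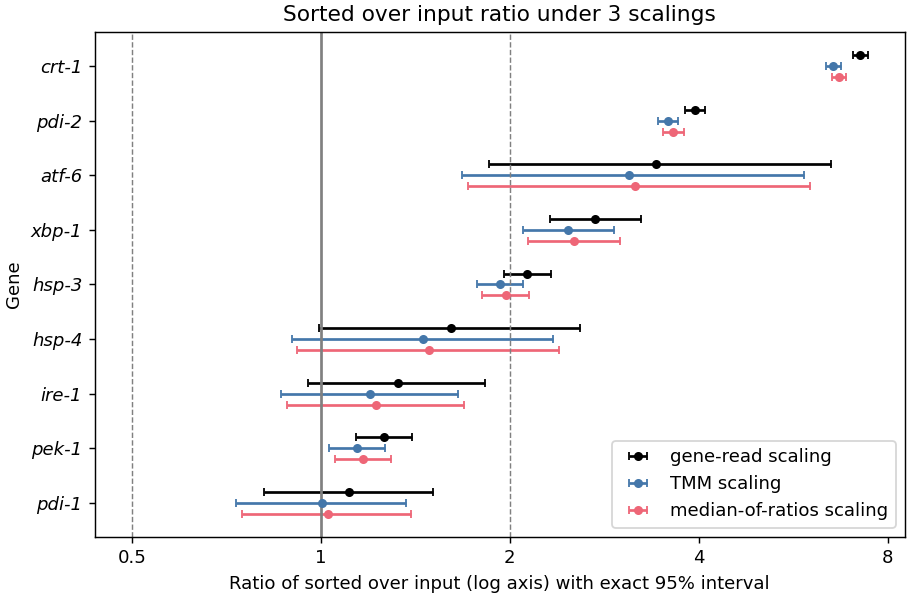
Ratio of sorted over input for each of the 9 genes (log axis) with exact 95% intervals, scaled by gene reads, TMM or median of ratios. The whole intervals of crt-1, pdi-2 and xbp-1 lie above 2 under all 3 scalings, and those of atf-6, hsp-3 and hsp-4 cross 2.

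The ER Hsp70 proteins, the worm's BiP, hold unfolded chains and bind the sensors, and hsp-4 is the copy known for its strong induction by ER stress. hsp-3, on the minus strand of chromosome X from 6089028 to 6092124, had 1032 input and 1107 sorted reads. Its level was 113 RPM (107 to 121) in input and 242 RPM (228 to 257) in sorted nuclei. The ratio of 2.13 (1.96 to 2.32) was not called at 2-fold, and it was called when only positions within 24 nt of an annotated end were kept, at 2.29 (2.09 to 2.50). Leaving pie-1 out of the scaling also gave a call, at 2.26 (2.08 to 2.46). hsp-4, on the minus strand of chromosome II from 7350112 to 7352645, had only 42 and 34 reads. It stood at 4.62 RPM (3.33 to 6.24) and 7.44 RPM (5.15 to 10.4), a ratio of 1.61 (0.994 to 2.59) whose interval holds 1. In both libraries hsp-3 far outweighed its copy, with 24.6 reads for each of hsp-4 in input (18 to 34.3) and 32.6 in sorted nuclei (23.2 to 47.3). These intervals overlap. The copies are similar in coding sequence, and how reads that match both were treated is not given in the sources used here.

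Among the signalling genes, xbp-1 was the one called higher. It lies on the plus strand of chromosome III from 4193809 to 4195358 and had 247 input and 340 sorted reads. Its level went from 27.2 RPM (23.9 to 30.8) to 74.4 RPM (66.7 to 82.7), a ratio of 2.74 (2.32 to 3.24). Without its largest position the ratio was 2.0 (1.57 to 2.55) and the call ended. Reads at 3' ends do not tell the spliced xbp-1 mRNA from the unspliced one.

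The gene ire-1, for the kinase and endonuclease that cuts xbp-1, lies on the minus strand of chromosome II from 8112243 to 8124910. It had 99 and 66 reads, or 10.9 RPM (8.85 to 13.3) and 14.4 RPM (11.2 to 18.4), and its ratio of 1.33 (0.956 to 1.83) has an interval that holds 1. For each read of ire-1 there were 2.49 of xbp-1 in input (1.97 to 3.18) and 5.15 in sorted nuclei (3.95 to 6.81). With all reads kept, the balance between sensor and target transcript thus differed between the libraries beyond counting error. Without each gene's largest position, the ratios of xbp-1 and ire-1 were 2.0 (1.57 to 2.55) and 1.36 (0.918 to 2.01), and these intervals overlap. With each position counted once the ratios were 0.890 for xbp-1 and 1.24 for ire-1.

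The kinase gene pek-1, on the minus strand of chromosome X from 11410176 to 11414887, was the most abundant sensor gene. With 958 input and 608 sorted reads it stood at 105 RPM (98.8 to 112) and 133 RPM (123 to 144), a ratio of 1.26 (1.14 to 1.40). The interval lies above 1 and below 2. In input its level was close to that of hsp-3, and their intervals overlapped. There were 9.68 reads of pek-1 for each of ire-1 in input (7.86 to 12.0) and 9.21 in sorted nuclei (7.14 to 12.1), a balance that did not differ beyond counting error.

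The membrane-bound factor gene atf-6, on the plus strand of chromosome X from 12480948 to 12484904, was the rarest of the 9. Its 18 input and 31 sorted reads gave 1.98 RPM (1.17 to 3.13) and 6.78 RPM (4.61 to 9.62). The ratio of 3.43 (1.86 to 6.50) was higher than that of xbp-1, but its wide interval held 2 and it was not called. In the order of levels, crt-1 stood first in both libraries, followed by pdi-2, hsp-3, pek-1, xbp-1, pdi-1, ire-1, hsp-4 and atf-6. Neighbours whose intervals overlapped were hsp-3 and pek-1 in input, pdi-1 and ire-1 in both libraries, and hsp-4 and atf-6 in sorted nuclei.

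**Figure D3:**
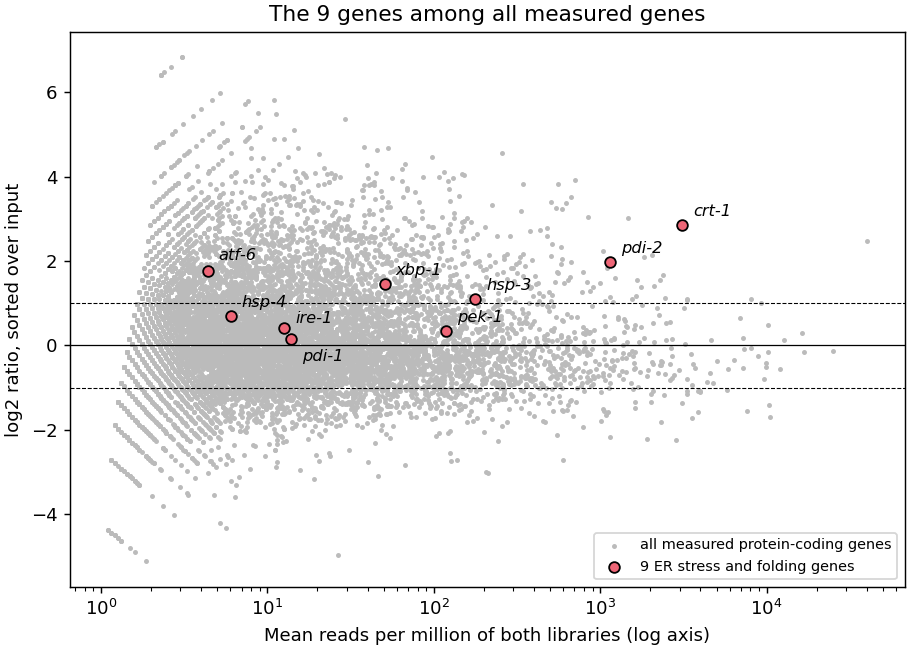
Log2 ratio of sorted over input against the mean level of both libraries in RPM (log axis) for all 10817 measured genes (grey) and the 9 genes (red), with dashed lines at 2-fold. The log2 ratio of crt-1 is 2.86 and that of pdi-1, the lowest of the 9, is 0.16.

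Other genes of ER protein handling were taken from lists. Against the 13.5% of all genes called higher and their median log2 ratio of 0.043, 3 of 10 measured ER folding genes were called higher and 0 lower, with a median of 0.89. Besides pdi-6 these were enpl-1, the worm's GRP94 chaperone, which went from 254 to 598 RPM at a ratio of 2.36 (2.23 to 2.49), and the glucosyltransferase gene uggt-1, which marks misfolded glycoproteins for another folding round. uggt-1 had 20 and 36 reads at 3.58 (2.02 to 6.53), and neither TMM nor median-of-ratios scaling kept its call, nor did leaving out its largest position. The abundant ero-1, which reoxidizes disulfide isomerases, stood at 1.09 (1.04 to 1.14), at 528 and 576 RPM. The summed level of this list was 7057 RPM in input and 6692 in sorted nuclei, with pdi-3 the largest part of both.

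Genes for translocation into the ER and N-glycosylation had a median of 0.89 over 16 measured genes, with 2 called higher and 0 lower, a share close to that of all genes. The called genes were sec-61.A, for the channel subunit, at 2.68 (2.33 to 3.08), and trap-2, for a translocon-associated subunit, at 2.40 (2.11 to 2.73), which neither TMM nor median-of-ratios scaling called. In this list 13 of 16 intervals lay wholly above 1, against 32.3% over all measured genes, shares not matched for depth. Its 3 most abundant genes were spcs-2, a signal peptidase subunit, at 0.622 (0.591 to 0.654), sec-62 at 1.01 (0.934 to 1.10) and trap-1 at 1.73 (1.58 to 1.89). Of 4 ER calcium genes, the channel gene itr-1 was called at 3.50 (2.18 to 5.72) with 29 and 51 reads, though not under TMM or without its largest position. The calcium pump gene sca-1 stood at 1.38 (1.22 to 1.55), calu-1 at 0.959 (0.888 to 1.04) and crp-1 at 2.10 (1.30 to 3.38).

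The lists for ER-associated degradation and for partners of stress signalling held no called gene at 2-fold, either way. Of all measured genes 13.5% were called higher and 4.1% lower. The 15 measured degradation genes had a median log2 ratio of -0.15, with ubxn-4 at 0.655 (0.607 to 0.706), the derlin gene der-2 at 1.05 (0.970 to 1.14) and hrdl-1 at 1.71 (1.57 to 1.85). The derlin gene cup-2 stood at 1.31 (1.18 to 1.45), and sel-1, which acts with the ligase SEL-11 in taking proteins out of the ER, at 0.654 (0.515 to 0.825). The 6 measured signalling partners had a median of -0.12. The kinase gene hpk-1 stood at 0.458 (0.411 to 0.510) and was called lower only under TMM and median of ratios, where 5.8% and 5.44% of genes were. eif-2alpha, which encodes the target of PEK-1, stood at 0.806 (0.566 to 1.13), the RNA ligase gene rtcb-1, which joins the cut xbp-1 mRNA, at 0.865 (0.608 to 1.22), and atf-4 at 1.26 (0.894 to 1.75). Only 2 of 14 abu genes, known for a response to ER stress when xbp-1 is missing, were measured, abu-14 at 0.435 (0.258 to 0.703) and abu-12 at 0.853 (0.486 to 1.45), and neither was called. Of 4 measured collagen hydroxylation partners none was called, and let-268, a lysyl hydroxylase gene, stood at 2.98 (1.58 to 5.75).

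Cytosolic chaperones had a median of 0.69 over 18 measured genes, beside 0.043 over all measured genes. Of the 18, 4 were called higher and 0 lower, against 13.5% and 4.1% of all genes. The 4 were the Hsp70 genes F44E5.4 at 8.09 (6.05 to 11), F44E5.5 at 4.54 (3.67 to 5.64) and hsp-70 at 7.33 (5.40 to 10.1), and the co-chaperone gene sti-1 at 3.0 (2.52 to 3.57). F44E5.4 and F44E5.5 are near-identical neighbours, so the split of reads between them is uncertain. The chaperonin genes cct-1 at 0.858 (0.820 to 0.898), cct-3 at 0.874 (0.824 to 0.927) and cct-5 at 1.64 (1.52 to 1.76) were the most abundant.

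**Figure D4:**
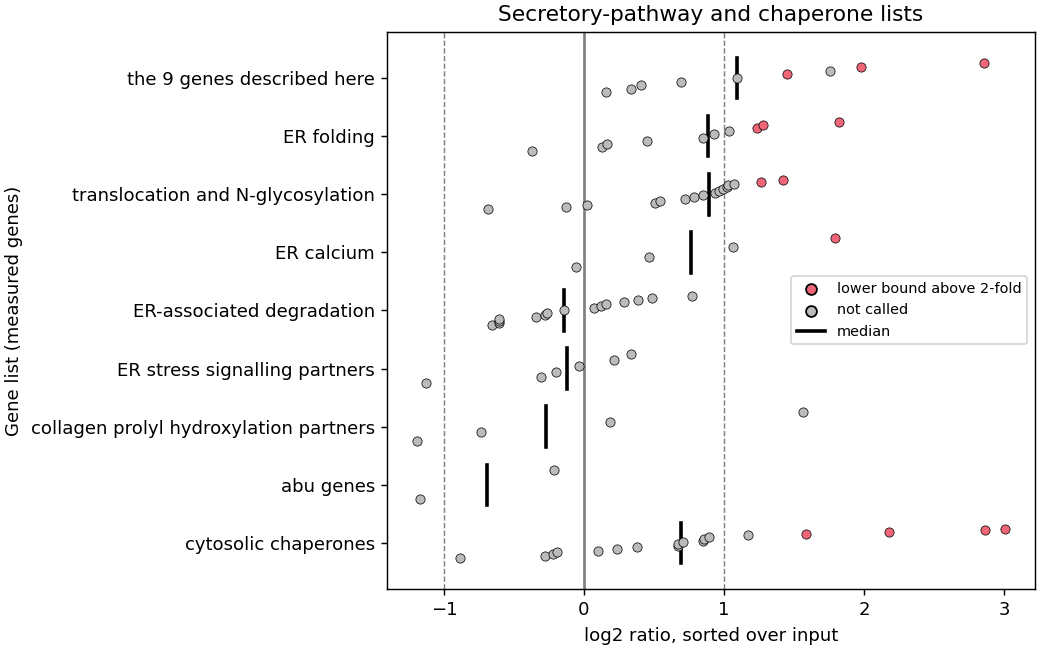
Log2 ratio of sorted over input for the measured genes of each list (points, red where the lower bound of the ratio passed 2) with the list's median (bar) and dashed lines at 2-fold. The medians run from 1.09 for the 9 genes to -0.69 for the abu genes.

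Reads of 4 of the 9 genes lay mainly at 1 site. Within 24 nt of an annotated 3' end lay 98.3% of input and 99.6% of sorted reads of crt-1, 97.5% and 98.7% of pdi-2, 99.6% and 98.4% of pek-1, and 88.6% and 91.0% of hsp-3. Over all genes the shares were 78.0% and 74.7%. The other 5 genes lay below the share of all genes in input, with 77.3% and 89.7% for xbp-1, 68.3% and 68.7% for pdi-1, and 66.7% and 58.1% for atf-6. In ire-1 the shares were 49.5% and 42.4%, and in hsp-4 they were 31% and 70.6%. Reads were grouped into sites within 24 nt, and a site was kept with 5% of a gene's reads in either library. Of the 8 genes with 20 reads in each library, 4 had 1 site (crt-1, pdi-2, pek-1 and hsp-3) and 4 had several. A site was called shifted when its share differed by 20 percentage points and the intervals did not overlap. This held for 0 of the 4 genes with several sites, against 16.1% of 4017 such genes in all. In hsp-4, the site 2 nt past the distal annotated end held 12 of 42 input and 19 of 34 sorted reads. Its share went from 28.6% (15.7 to 44.6) to 55.9% (37.9 to 72.8). This change of 27.3 points passed 20, but the intervals overlapped.

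In xbp-1, a site at position 4195324 of the files, 5 nt before the distal annotated end, held 75.3% (69.4 to 80.6) of the reads in input and 89.4% (85.6 to 92.5) in sorted nuclei. A site 72 nt past that end held 15.4% (11.1 to 20.5) and 5.88% (3.63 to 8.94). The intervals did not overlap at either site, but the changes were under 20 points. In level, the first site was 3.25-fold higher in sorted nuclei (2.70 to 3.92), while the distal site had a ratio of 1.05 (0.577 to 1.85).

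In ire-1, nearly all input reads fell at a pair of sites in the 3' UTR. The site 17 nt before the distal end held 49.5% (39.3 to 59.7) of the input reads and, in sorted nuclei, 42.4% (30.3 to 55.2). The site 315 nt before that end held 45.5% (35.4 to 55.8) and 34.8% (23.5 to 47.6). An intronic site, at position 8122410 of the files on chromosome II, had 3 input and 13 sorted reads, 3.03% (0.629 to 8.60) against 19.7% (10.9 to 31.3). This site lies within the span of ire-1, where most reads on the other strand were assigned to unc-105. Its change of 16.7 points fell short of a call. In pdi-1, the site at the annotated end held 68.3% (59.2 to 76.5) and 68.7% (56.2 to 79.4), and a site 52 nt before it held 14.2% (8.47 to 21.7) and 23.9% (14.3 to 35.9).

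Reads inside coding exons formed a smaller share in sorted than in input nuclei, with intervals that did not overlap, in 6 of the 8 genes with 20 reads in each library. In hsp-4 such reads were 54.8% (38.7 to 70.2) of the input reads, 23 of 42, and 2.94% (0.0744 to 15.3) of the sorted reads, 1 of 34. In pdi-1 they were 16.7% (10.5 to 24.6) and 2.99% (0.364 to 10.4), 20 of 120 and 2 of 67 reads. In hsp-3 they were 2.62% (1.73 to 3.78) and 0.0903% (0.00229 to 0.502). In crt-1 they were 1.14% (0.901 to 1.42) and 0.108% (0.0714 to 0.157), and in pdi-2 0.286% (0.148 to 0.499) and 0.0120% (0.000304 to 0.0669). xbp-1 had 10 of 247 input reads, 4.05% (1.96 to 7.32), and 0 of 340 sorted reads, which allows up to 3 reads, in coding exons. Over all genes with 20 reads in each library 4.9% had such a lower share, but a gene with few coding-exon reads in input could not, so nothing about the 9 genes is read from these counts. Coding exons held 0.886% of all input and 0.718% of all sorted gene reads. This comparison was chosen after the values were seen.

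The ratio of hsp-4 depended on these reads. With coding-exon positions left out, 19 input and 33 sorted reads remained, and the ratio was 3.45 (1.90 to 6.42) in place of 1.61. Near annotated ends alone it was 3.83 (1.88 to 8.20). Neither was called, because both intervals hold 2. For hsp-3, leaving out coding-exon positions gave 2.19 (2.00 to 2.38), just past the call.

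**Figure D5:**
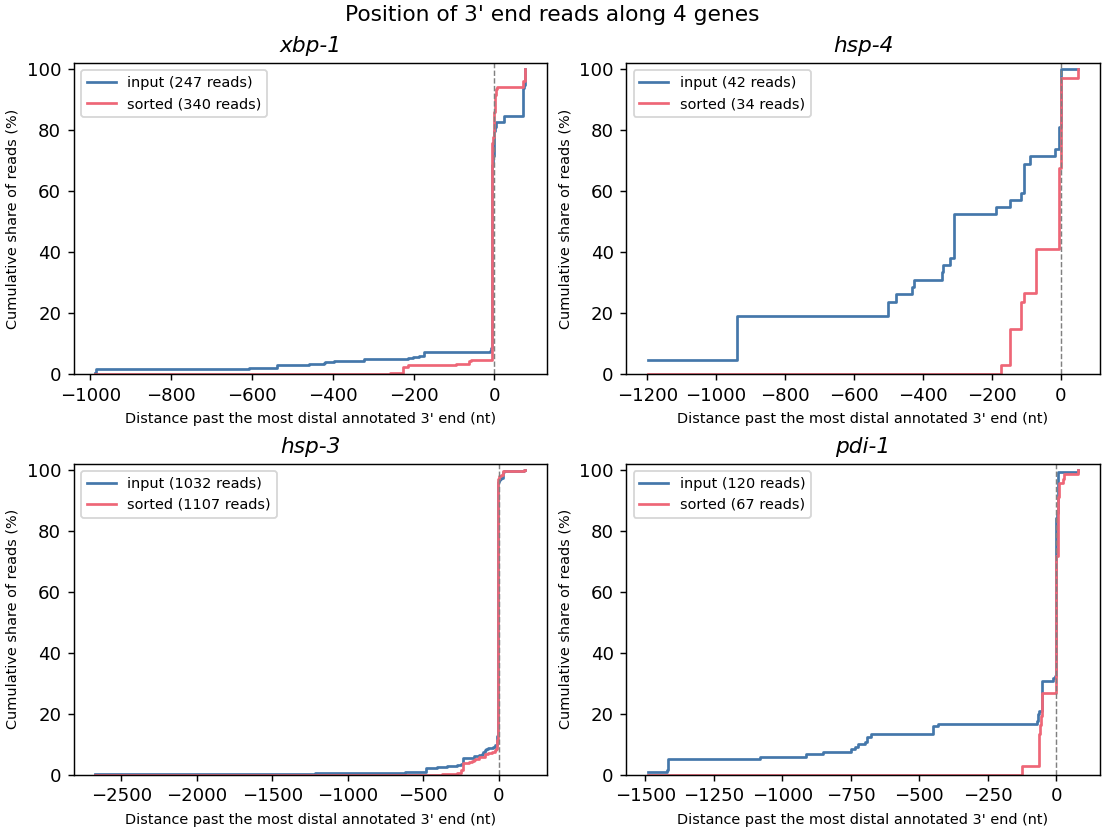
Cumulative share of reads (%) along 4 of the 9 genes by distance in nt past the most distal annotated 3' end (dashed line), in input (blue) and sorted nuclei (red). In hsp-4 and pdi-1 the input line rises earlier than the sorted line, where 54.8% and 16.7% of input reads lie in coding exons.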

How the data were processed

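RNA 3' ends were analysed in 2 libraries, input and sorted nuclei, 1 per group. The authors deposited, per position and strand, whole-number counts of reads that are not scaled. Per the submitters' processing notes TopHat was used, its version not stated there, and nothing in the sources used here gives the genome build, the read filters or the handling of multiply mapped reads. Only the column of counts was used, with the position and strand.

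Positions were matched to protein-coding gene models of WBcel235 (Ensembl) by adding, in each of 203 windows of 0.5 Mb, the commonest offset between positions with at least 10 reads and annotated 3' ends. Offsets ran from -7 to 120 nt in all but 3 windows at the end of chromosome V (up to 4612 nt), so the files use another build. They were 19 to 76 nt in the windows of the 9 genes, where 25.5% to 55.7% of positions lay within 3 nt of the offset, against a median of 0.182% at an average offset. Gene coordinates in the text are those of WBcel235, and positions "of the files" are as deposited, and whether they count from 0 or 1 is not stated.

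Reads were summed for each gene, on the gene's own strand, from its span and the 300 nt downstream. A position in several genes went to the gene whose own span held it and whose 3' end was nearest. No read of the 9 genes fell in such a position. The total was 9243831 reads in input and 4709432 in sorted nuclei, of which 98.4% and 97.1% fell in genes. A count of 0 allows up to 3 reads, 0.330 RPM in input and 0.656 in sorted nuclei. Ratios carry exact 95% binomial (Clopper-Pearson) intervals, levels exact Poisson intervals, and log2 ratios 0.5 added reads. TMM (edgeR 4.0.16) and median-of-ratios factors (DESeq2 1.42.0) were alternatives and moved all log2 ratios by -0.14 and -0.11. No count test was run, because there are no replicates. The steps were tested on simulated data. Named genes are the 9 members and, of each list, the called genes and the 3 with the most reads; crt-1 set the search for genes of like level. Further list members and all marker values were named after they were seen. The members and lists were chosen with earlier results of these data known. Symbols absent from the annotation were left out, and daf-21 was counted as hsp-90.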

Additional observations from a re-analysis of the deposited data

How the results depend on the processing

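With 1 library per group no replicate could be left out. No paired analysis was possible because each group has 1 library. The 3 members called higher (crt-1, pdi-2 and xbp-1) were called in every other alternative except 2. Counting each position once left 0 called, with ratios of 1.14 for crt-1, 1.27 for pdi-2 and 0.890 for xbp-1, which reversed. In that setting a ratio compares scaled numbers of positions with a read, not numbers of reads. Leaving out each gene's largest position left 2, without xbp-1. Counts of 4, with hsp-3 added, came from positions near annotated ends alone and from 2 alternatives chosen after seeing the data, coding-exon positions left out and scaling without pie-1. No member was called lower under any alternative. The median log2 ratio of 1.09 was 0.95 under TMM, 0.20 with each position counted once, 1.62 near annotated ends, 0.89 with at least 50 reads, where atf-6 dropped out, and 1.51 without coding-exon positions. The count of members with a shifted site was 0 under all 4 site alternatives. The calls of enpl-1, pdi-6, uggt-1, sec-61.A, trap-2, sti-1, hsp-70 and F44E5.5 also ended with each position counted once. For hsp-70 and F44E5.5 the ratios there were 2.00 (0.872 to 4.77) and 2.14 (0.863 to 5.60). Too few positions were left to measure itr-1 and F44E5.4 in that setting. Among other named genes, trap-1 reversed without the downstream extension, at 0.291, where only 163 of its reads remained. Depth limits hsp-4 and atf-6 most, with 76 and 49 reads.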

Other observations

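On the strand opposite ire-1, 76 input and 37 sorted reads lay within its span, all but 2 of the input reads assigned to unc-105, beside 99 and 66 reads of ire-1 itself. Opposite crt-1 lay 22 and 4 reads, all assigned to smut-1, and opposite hsp-3 lay 16 and 5 with no gene assigned. In each of the other 6 genes at most 4 reads of a library lay on the other strand.

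Without crt-1 the other 8 genes summed to 738 RPM in input and 2315 RPM in sorted nuclei. Without pdi-2 as well, the remaining 7 summed to 277 and 493 RPM.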
